A study of Danio rerio with 16 samples.

Results

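RNA of whole zebrafish embryos at 34 hours post-fertilisation (hpf) was compared between hnf4a, hnf4b knockouts and their siblings, over all genes measured. The comparison takes 8 of the 16 libraries of the series, 4 of knockouts and 4 of siblings, and the other 8 hold the same groups at 48 hpf. Per the labels, the knockout embryos carried mutations of hnf4a and hnf4b and were separated from siblings by genotype, no treatment was given, and RNA came from whole embryos. The labels do not give the alleles, which genotypes the siblings held, how many embryos a library pooled, or whether libraries came from separate clutches. The p-values therefore measure only the spread between these libraries, which may be technical. By its title, the series is about how yolk lipid is mobilised for growth through lipoproteins.

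Hnf4 proteins are nuclear receptors that bind DNA in pairs and drive genes of hepatocytes, of absorptive epithelium in gut and kidney and of the yolk syncytial layer. The yolk syncytial layer is the multinucleate tissue around the yolk of a fish embryo. It takes up yolk lipid and protein, packs lipid into lipoproteins built around apolipoprotein B, and secretes these and plasma proteins into the circulation before the liver is functional. Transcript levels are given in CPM, counts scaled to a common library size of 1000000, 4 values in the order of replicates 1 to 4. A gene is called where its adjusted p lies below 0.05 over all genes tested, and fold changes are log2 of knockout over sibling with standard errors.

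The targeted transcripts were present in the knockouts. The level of hnf4a was 10.4, 18.4, 12.6 and 7.08 CPM in knockouts, against 11.6, 14.99, 10.8 and 13.8 CPM in siblings, and the groups overlapped (log2 fold change -0.08 ± 0.27, adjusted p = 0.897). Its paralog hnf4b was at 0.925, 2.56, 2.18 and 3.199 CPM in knockouts, against 8.504, 2.66, 1.66 and 3.78 CPM in siblings (-0.91 ± 0.48, adjusted p = 0.269), with sibling replicate 1 above the others. Without that library its fold change was -0.29. The third gene of the family, hnf4g, lay below 1 CPM in every library and was not called (0.42 ± 0.46, adjusted p = 0.649). These levels do not check the genotype labels, since a mutation can leave its transcript in place.

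Total counts were 34588058 to 41000857 in knockouts and 35586032 to 42407778 in siblings. Markers of other tissues were followed in the same libraries. The hepatocyte marker fabp10a stayed near 0 in both groups, at 0.403 to 1.31 CPM in knockouts and 0.0815 to 0.933 CPM in siblings, and the pancreas genes prss1 and ins lay below 3 CPM. The neuronal gene elavl3, the epidermal gene krt4 and the heart gene myl7 overlapped between the groups. The embryonic globin gene hbbe1.1 ranged from 135 to 791 CPM in knockouts and from 145 to 928 CPM in siblings. The muscle actin gene acta1b and the pronephros and gut cadherin gene cdh17 were lower, and the notochord gene tbxta was higher. The hatching gland gene he1.1 was not called but lay higher in every knockout library, at 2377 to 3029.6 CPM in knockouts and 1899 to 2184 CPM in siblings. Hatching gland genes took 0.395 to 0.429% of counts in knockouts, against 0.299 to 0.344% in siblings, without overlap, and their part in the results was not tested. In whole embryos, fewer cells of a type and less RNA per cell cannot be told apart.

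The knockout moved many genes at 34 hpf, a few of them by very large folds and nearly all of those downward. Of 24084 genes tested, 2240 (9.30%) were called, 985 of them higher (4.09%) and 1255 lower (5.21%). These shares are the background for every count of list members below. The median log2 fold change was 0.58 among the higher genes, -0.63 among the lower genes and 0.01 over all genes. Past 4-fold there were 46 higher and 214 lower genes, and past 32-fold 5 higher and 37 lower genes. In sum the lower genes fell by 57590.1 CPM, and the higher genes rose by 20623 CPM. The 4 libraries of each group did not overlap in 3412 genes (14.2%), with knockouts above siblings in 6.93% and below them in 7.23% of all genes. Among these were 840 of the 985 higher and 1119 of the 1255 lower genes. Over 4 equal classes of level, the share called was 2.59% in the lowest class and 15.4% in the highest, where counts are larger. Higher genes made up 44.0% of calls, but 56.1% under upper quartile scaling, which moved the median of all genes by 0.0434. Of the calls, 425 higher and 726 lower genes were still called after any 1 library was left out.

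**Figure D1:**
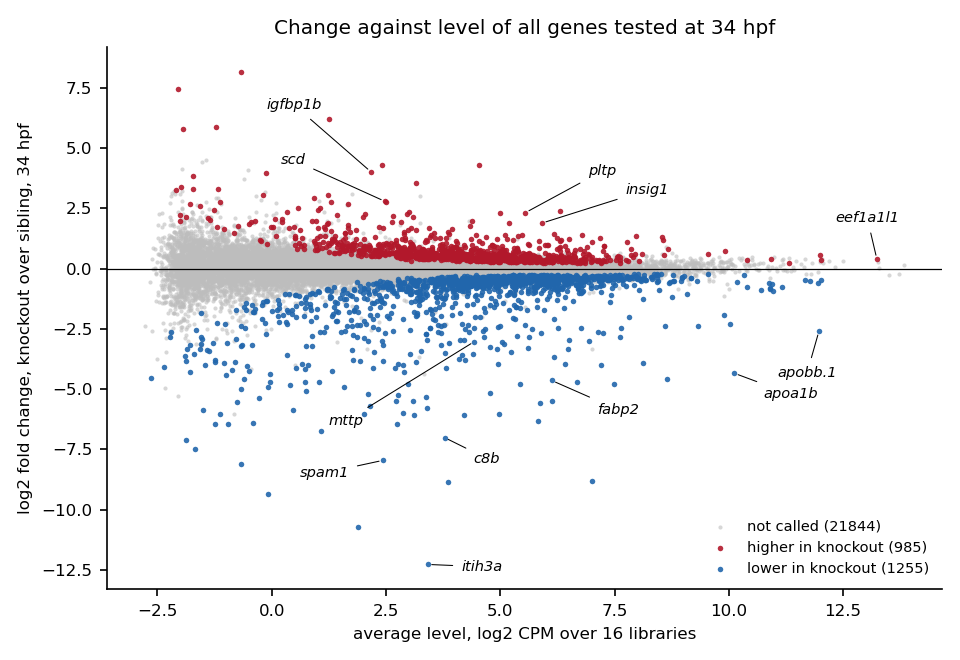
Log2 fold change of knockout over sibling at 34 hpf against average log2 CPM over the 16 libraries, 1 point per gene tested. Called genes are red where higher (985) and blue where lower (1255) in knockouts, and the deep falls reach much further from 0 than the rises.

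Among the deepest losses were genes of secreted plasma proteins and of the enzymes and binding proteins of absorptive tissue. The gene itih3a, a heavy chain of the inter-alpha-trypsin inhibitor of plasma, had 0 counts in the 4 knockout libraries, against 12.9, 27.7, 10.5 and 12.4 CPM in siblings, at least 815-fold lower with a floor of 3 counts over the group. The plasma protease gene habp2 likewise had 0 counts in knockouts, against 5.91, 10.4, 2.62 and 2.46 CPM in siblings, at least 273-fold lower. The complement gene c8b, whose product joins the membrane attack complex, was at 0.119, 0.341, 0.226 and 0.246 CPM in knockouts, against 40.9, 34.4, 21.8 and 22.7 CPM in siblings (-7.01 ± 0.34, adjusted p = 2.06e-09). These genes were chosen as large falls without overlap, so the gap between the groups is only a description. The anticoagulant protease gene proca was at 0.261, 0.114, 0.1003 and 0.492 CPM in knockouts, against 19.8, 21.3, 13.2 and 11.7 CPM in siblings, and the hyaluronidase gene spam1 at 0, 0.0568, 0 and 0.109 CPM in knockouts, against 10.7, 14.5, 8.86 and 8.01 CPM in siblings. The aldo-keto reductase gene akr1a1a was at 0, 0.114, 0 and 0.656 CPM in knockouts, against 16.7, 18.5, 15.3 and 15.7 CPM in siblings (-6.46 ± 0.60, adjusted p = 3.80e-06). In all of these the highest knockout library stayed below the lowest sibling library by more than 8-fold, which follows in part from their choice.

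The loss took in genes of quite different function. The fatty acid binding protein gene fabp2, of gut enterocytes, was at 7.87, 6.87, 7.87 and 7.98 CPM in knockouts, against 217, 193, 201 and 153 CPM in siblings (-4.64 ± 0.24, adjusted p = 3.20e-09), an even level over the knockouts. The ependymin-like secreted protein gene epdl2 was at 0.119, 0.369, 0.401 and 2.49 CPM in knockouts, against 44.8, 78.4, 51.8 and 43.4 CPM in siblings, and the uncoupling protein gene ucp1 at 0.593, 0.0568, 0 and 0.656 CPM in knockouts, against 16.8, 19.3, 8.69 and 14.7 CPM in siblings. The microsomal triglyceride transfer protein, encoded by mttp, loads lipid onto apolipoprotein B, and its transcript was at 4.6004, 4.94, 4.99 and 10.7 CPM in knockouts, against 60.98, 42.4, 48.3 and 53.1 CPM in siblings (-3.02 ± 0.21, adjusted p = 1.88e-07). Knockout replicate 4 was the highest of its group for epdl2, ucp1 and mttp.

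Knockout replicate 4 kept more of the lost transcripts than the other 3 knockout libraries did. For the 69 genes that were called lower past 8-fold and had at least 5 CPM in siblings, the median level in knockout replicates 1 to 4 was 1.82, 3.13, 1.67 and 10.4% of the sibling mean, against 118, 116, 84.2 and 87.8% in sibling replicates 1 to 4. Replicate 4 was the highest knockout library for 48 of the 69 genes, replicate 2 for 10. Their summed level was 146, 333, 115 and 1036 CPM in knockouts, against 8402, 8261, 6573 and 6799 CPM in siblings. That the groups lie apart here follows from the choice of the genes and is only a description. Without knockout replicate 4, 1982 genes in place of 1255 were called lower and 1226 in place of 985 higher. The same library also held the most transcripts of some abundant housekeeping groups. Nuclear respiratory chain genes took 0.515, 0.590, 0.668 and 0.834% of counts in knockouts, against 0.664, 0.637, 0.674 and 0.666% in siblings. Proteasome subunits took 0.265, 0.316, 0.320 and 0.419% in knockouts, against 0.374, 0.373, 0.399 and 0.384% in siblings. For both groups the knockout libraries spread to either side of the siblings, which lay close together. The part of this spread in the calls was not tested beyond leaving out the library.

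**Figure D2:**
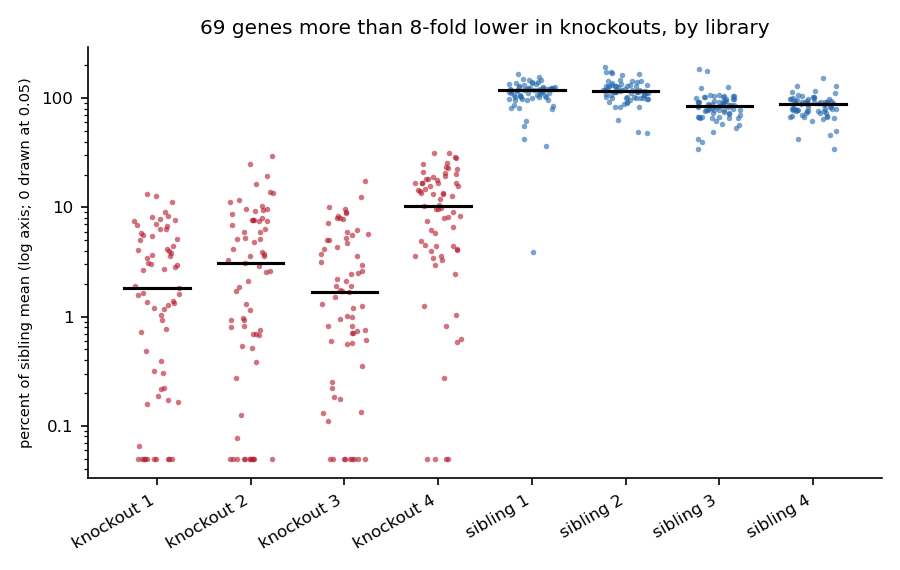
Level of the 69 genes called lower past 8-fold with a sibling mean of at least 5 CPM, as a percentage of that mean on a log axis. Each knockout (red) and sibling (blue) library of 34 hpf has 1 point per gene and a bar at the median. Values of 0 are drawn at 0.05. Knockout replicate 4 has the highest median of the knockouts, 10.4%, against 84.2 to 118% in siblings.

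In absolute terms the largest loss, among genes whose symbols the naming rule allows, was that of apobb.1, an apolipoprotein B gene. It was at 626, 1373, 1154 and 2579.6 CPM in knockouts, against 9463, 9698, 7214 and 8089 CPM in siblings (-2.59 ± 0.37, adjusted p = 0.000242). The high-density lipoprotein gene apoa1b was at 21.4, 73.8, 17.1 and 296 CPM in knockouts, against 2498, 2344, 1604 and 1813 CPM in siblings, and apoa2 at 97.2, 237, 184 and 791 CPM in knockouts, against 1881, 1855, 1309 and 1469.9 CPM in siblings. In both, knockout replicate 4 lay highest of the knockouts and still below every sibling. The other apolipoprotein B gene, apoba, was at 149.6, 429.8, 149 and 219 CPM in knockouts, against 1216, 1245, 1168 and 1239.7 CPM in siblings (-2.36 ± 0.31, adjusted p = 0.000102), with replicate 2 the highest knockout. The apolipoproteins took 0.193, 0.414, 0.301 and 0.661% of counts in knockouts, against 2.09, 2.01, 1.65 and 1.76% in siblings, a difference of -1.49 percentage points (two-sided exact permutation test, adjusted p = 0.0286 over 4 shares, the smallest that 4 against 4 libraries allow). Of 19 tested, 13 were lower and 0 higher, with a median log2 fold change of -2.32. Any list whose shares do not overlap between the groups gets the same p in this test. Pancreas genes, with 0 of 25 called, took 0.0287 to 0.0307% of counts in knockouts, against 0.0264 to 0.0275% in siblings, also without overlap. The p alone therefore does not set the apolipoproteins, or the other shares tested below, apart from other lists.

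Plasma protein transcripts were lower in sum as well. Coagulation, complement and other plasma proteins took 0.2503 ± 0.0687% of counts in knockouts, against 0.6401 ± 0.0917% in siblings (mean ± SD, n = 4 each, same test, adjusted p = 0.0286). Of 56 tested, 33 were lower and 3 higher, with a median of -2.46. The higher genes were hpxa, of the heme carrier hemopexin, and the complement genes c4b and c7b, named after their values were seen. The call of c7b was kept after any 1 library was left out (1.89 ± 0.39, adjusted p = 0.00483). The rise of hpxa was lost without knockout replicate 2 (log2 fold change 1.72, adjusted p = 0.235) and without any 1 sibling library (adjusted p = 0.0537 to 0.0755). That of c4b was lost without knockout replicate 2 or sibling replicates 3 or 4 (adjusted p = 0.0848 to 0.0974).

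Several genes that build, store and package neutral lipid were lower. None of the 26 lipid droplet and triglyceride genes tested was higher and 8 were lower, where 5.21% of all genes were lower. Diacylglycerol acyltransferase, the product of dgat2, makes triglyceride, and its transcript was at 4.46, 13.3, 2.41 and 25.98 CPM in knockouts, against 171, 167, 125 and 114 CPM in siblings (-3.65 ± 0.59, adjusted p = 0.000850). The lipid droplet protein gene cideb, which in mouse liver acts in lipoprotein lipidation, was at 0.142, 0.0568, 0.125 and 0.273 CPM in knockouts, against 4.81, 3.77, 3.59 and 3.71 CPM in siblings. The cholesterol esterifying enzyme gene soat2 was at 0.332, 0.653, 1.18 and 2.46 CPM in knockouts, against 6.21, 7.06, 5.102 and 5.72 CPM in siblings. These groups did not overlap, and knockout replicate 4 was the highest knockout for the 3 genes. The phospholipase-like gene pla2g12b, which acts in lipoprotein assembly, was at 24.4, 29.3, 21.96 and 179 CPM in knockouts, against 479.5, 485, 408 and 449 CPM in siblings (-2.84 ± 0.59, adjusted p = 0.00568), so that replicate 4 kept a far larger part than the other knockouts. The binding protein gene fabp1b.1 was at 18.99, 64.5, 15.9 and 86.7 CPM in knockouts, against 382, 343, 237 and 239 CPM in siblings.

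Some genes of export from the endoplasmic reticulum were lower, by smaller folds. In the list of COPII coat proteins and cargo receptors, which carry secretory proteins to the Golgi, 9 of 37 members were lower and 0 higher, with a median of -0.21. The coat gene sec24d was at 62.2, 70.12, 63.04 and 66.1 CPM in knockouts, against 100.5, 101, 85.1 and 93.4 CPM in siblings (-0.54 ± 0.08, adjusted p = 0.000323). The cargo receptor gene lman1 was at 15.5, 15.4, 13.8 and 18.05 CPM in knockouts, against 25.2, 25.5, 25.1 and 25.8 CPM in siblings (-0.69 ± 0.11, adjusted p = 0.000809). Within each group these levels lay close together. The gene mia2, for a protein of export sites that handle large cargo, changed by -0.61 ± 0.11, ergic1 by -0.57 ± 0.10 and the scaffold gene sec16b by -1.41 ± 0.28. The 9 lower members include creb3l3a, for a membrane-bound transcription factor of lipid metabolism, which is neither a coat protein nor a cargo receptor. It was the deepest member, at 1.47, 3.12, 1.96 and 9.21 CPM in knockouts, against 30.9, 21.4, 14.3 and 18.8 CPM in siblings (-2.44 ± 0.47, adjusted p = 0.00319). Of 37 COPI and Golgi genes 8 were lower and 2 higher, with the fusion protein gene bet1 at -0.60 ± 0.09 and the coat gene arcn1b at -0.32 ± 0.07. The count of lower Golgi genes was 4 or 5 without knockout replicate 3 or any 1 sibling library. Of 29 phospholipid genes 4 were lower and 2 higher (0 or 1 higher without knockout replicates 1 or 4 or any 1 sibling library), and the choline phosphotransferase gene chpt1 was at -0.89 ± 0.14. At 48 hpf the changes of sec24d (-0.10 ± 0.08), lman1 (-0.24 ± 0.11) and arcn1b (-0.15 ± 0.07) were not called, and their differences between the stages were not called either. The KDEL receptor gene kdelr2a, named after its value was seen, changed by -0.72 ± 0.07 at 34 hpf and -0.11 ± 0.07 at 48 hpf. Its difference was called (0.61 ± 0.10, adjusted p = 0.0105).

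Transporters of absorptive and excretory epithelium were lower in single members. The organic cation exporter gene slc47a1 was at 1.07, 3.35, 1.204 and 3.47 CPM in knockouts, against 15.8, 13.3, 10.96 and 11.3 CPM in siblings (-2.50 ± 0.38, adjusted p = 0.000430). The organic anion transporter gene slco1d1 was at 1.99, 5.396, 2.36 and 5.03 CPM in knockouts, against 26.9, 18.5, 22.01 and 23.6 CPM in siblings (-2.63 ± 0.27, adjusted p = 1.08e-05). The exporter of conjugated compounds encoded by abcc2 was at 2.18, 5.25, 1.605 and 6.04 CPM in knockouts, against 36.9, 36.3, 24.9 and 29.1 CPM in siblings (-3.08 ± 0.38, adjusted p = 7.14e-05). In all 3 genes knockout replicates 2 and 4 held more than replicates 1 and 3. The glucose transporter gene slc2a2, of liver and gut, was at 0.166, 0.1704, 0.125 and 3.17 CPM in knockouts, against 20.5, 14.8, 17.8 and 17.6 CPM in siblings. Its fold change was -4.30 ± 0.66, and -6.82 without knockout replicate 4. The dicarboxylate transporter gene slc13a2 changed by -2.66 ± 0.33, slc23a3 by -3.59 ± 0.54, the magnesium transporter gene slc41a2a by -2.70 ± 0.45 and the sulphate transporter gene slc26a1 by -1.03 ± 0.20. The ammonia channel gene rhbg was at 5.38, 5.62, 5.87 and 5.69 CPM in knockouts, against 27.6, 20.9, 23.6 and 23.9 CPM in siblings (-2.09 ± 0.13, adjusted p = 5.79e-08), with hardly any spread among the knockouts.

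By class, the transporters were mixed. Of 72 organic anion, cation and monocarboxylate transporters 10 were lower and 5 higher, of 29 sugar transporters 6 and 1, and of 48 genes of the ABC transporter family 8 and 4. The lower genes of this family include abcf1 and abcf2a, ribosome-associated ATPase genes that are given below with translation. Without knockout replicate 2, 3 of the first class were higher, and without knockout replicate 3, 2 of the ABC transporters. The amino acid and peptide transporters had 1 lower and 3 higher of 67, below the background of 9.30%. With the replicate block 5 were lower, over the omissions of 1 library 0 to 3, and without knockout replicate 3 or sibling replicates 2 or 3 the higher ones were 1. A higher one was slc3a2b, the heavy chain of several amino acid exchangers, at 51.6, 72.8, 70.9 and 68.9 CPM in knockouts, against 36.7, 35.3, 28.4 and 34.5 CPM in siblings (0.97 ± 0.12, adjusted p = 9.32e-05). The monocarboxylate transporter gene slc16a9a was also higher, at 8.32, 11.7, 10.7 and 7.46 CPM in knockouts, against 1.695, 2.06, 2.51 and 3.64 CPM in siblings (1.94 ± 0.34, adjusted p = 0.00141). The inorganic ion transporters had 6 lower and 5 higher of 92, with the zinc transporter gene slc30a8 at -0.77 ± 0.15. Between 1 and 3 of them were higher without knockout replicates 2 or 3 or any 1 sibling library, and 2 with the replicate block. The sugar transporter gene slc2a15a was at -0.84 ± 0.11.

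Among 56 mitochondrial carriers 6 were higher and 8 lower, or 13 lower without knockout replicate 4. The pyrimidine nucleotide carrier gene slc25a36a was at 63.1, 63.99, 70.5 and 75.8 CPM in knockouts, against 31.7, 27.5, 35.02 and 29.3 CPM in siblings (1.15 ± 0.10, adjusted p = 2.31e-06), without overlap. The glutamate carrier gene slc25a22a was at 18.5, 19.7, 11.4 and 7.77 CPM in knockouts, against 45.3, 44.96, 25.1 and 32.2 CPM in siblings (-1.36 ± 0.24, adjusted p = 0.00156). Duplicate genes of a carrier moved apart. The folate carrier gene slc25a32a was at 43.3, 33.5, 40.7 and 39.8 CPM in knockouts, against 18.7, 18.1, 23.1 and 22.9 CPM in siblings (0.93 ± 0.13, adjusted p = 0.000209), whereas its duplicate slc25a32b was at 10.2, 13.2, 11.5 and 15.5 CPM in knockouts, against 19.6, 19.8, 19.1 and 17.4 CPM in siblings (-0.59 ± 0.13, adjusted p = 0.00682). For the citrate carrier, slc25a1a changed by 0.58 ± 0.12 and slc25a1b by -0.47 ± 0.10, both called. The b copies were named after their values were seen. Reads that match both copies of a gene could have been lost or assigned to either, so the split between copies is uncertain.

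Enzymes of detoxification were lower in part, by large folds. Of 67 cytochromes P450 tested, 10 were lower and 5 higher, or 3 higher without knockout replicate 1. The gene cyp2aa8 was at 2.61, 3.89, 3.16 and 2.02 CPM in knockouts, against 53.8, 32.99, 22.9 and 28.5 CPM in siblings (-3.57 ± 0.36, adjusted p = 9.71e-06), and its neighbour in the family cyp2aa4 at 5.53, 7.895, 3.03 and 3.61 CPM in knockouts, against 42.6, 24.03, 27.1 and 32.8 CPM in siblings. The gene cyp4v8 fell to at most 0.176 CPM in knockouts, against at least 3.62 CPM in siblings. Members of the cyp2aa group are alike in sequence, so the counts of single members are uncertain. Among 67 conjugating enzymes, which attach sugar, sulphate, glutathione or methyl groups, 14 were lower and 5 higher. The count of higher ones was 2 or 3 without knockout replicate 2 or any 1 sibling library. The glucuronosyltransferase gene ugt1b7 was at 1.11, 0.5396, 0.401 and 1.04 CPM in knockouts, against 6.699, 4.48, 3.82 and 4.25 CPM in siblings (-2.63 ± 0.38, adjusted p = 0.000323) and ugt1a7 changed by -1.58 ± 0.23, although these genes can share exons. The methyltransferase domain gene comtd1 was at 0.0474, 0, 0.351 and 1.04 CPM in knockouts, against 6.89, 5.48, 6.33 and 6.09 CPM in siblings (-4.11 ± 0.62, adjusted p = 0.000449). Of 75 aldo-keto reductases and dehydrogenases 14 were lower and 7 higher, among them sdr42e2 at 0.901, 1.02, 0.802 and 2.13 CPM in knockouts, against 15.5, 16.8, 13.6 and 5.48 CPM in siblings (-3.40 ± 0.39, adjusted p = 2.73e-05).

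Genes on both sides of vitamin D metabolism moved in opposite directions. The hydroxylases that activate vitamin D were lower, namely cyp2r1, which makes the circulating form, and cyp27b1, which makes the hormone. The level of cyp2r1 was 0.545, 1.05, 0.401 and 1.86 CPM in knockouts, against 6.56, 6.43, 6.04 and 4.05 CPM in siblings (-2.59 ± 0.42, adjusted p = 0.000767), and that of cyp27b1 was 0.806, 0.312, 0.0501 and 0.547 CPM in knockouts, against 8.61, 7.76, 3.27 and 4.64 CPM in siblings (-3.80 ± 0.52, adjusted p = 0.000186). The gene cyp24a1, whose product inactivates the hormone, was higher, at 10.4, 1.82, 4.26 and 2.05 CPM in knockouts, against 0.656, 0.7602, 0.641 and 0.835 CPM in siblings (2.68 ± 0.65, adjusted p = 0.0147). Knockout replicate 1 held the most cyp24a1, and without it the call was lost (log2 fold change 1.89, adjusted p = 0.0566), as it was in limma-voom (adjusted p = 0.0711). The epithelial calcium channel gene trpv6 was at 11.3, 6.84, 4.76 and 6.56 CPM in knockouts, against 3.39, 3.91, 3.09 and 3.98 CPM in siblings (1.04 ± 0.20, adjusted p = 0.00381). The list of vitamin D and calcium genes had 3 higher and 2 lower of 23, 21.7% called beside 9.30% of all genes.

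Some retinoid genes were lower. Retinol binding proteins carry vitamin A in plasma (rbp4) and inside absorptive cells (rbp2a). The level of rbp4 was 74.1, 104, 87.7 and 119 CPM in knockouts, against 267, 222, 175 and 164 CPM in siblings (-1.11 ± 0.21, adjusted p = 0.00241), and that of rbp2a was 0.332, 0.625, 0.903 and 3.75 CPM in knockouts, against 24.6, 30.98, 16.2 and 24.1 CPM in siblings (-4.11 ± 0.60, adjusted p = 0.000338). The retinol dehydrogenase gene rdh1 was at 0.0474, 0.142, 0.1003 and 0 CPM in knockouts, against 3.28, 2.04, 1.46 and 0.933 CPM in siblings, and rdh5 at 0.664, 0.937, 0.928 and 2.63 CPM in knockouts, against 8.64, 6.52, 5.25 and 4.99 CPM in siblings (-2.30 ± 0.33, adjusted p = 0.000244). Against these, rdh10b, for the enzyme that oxidises retinol on the way to retinoic acid, was higher, at 17.2, 19.9, 18.3 and 18.4 CPM in knockouts, against 11.5, 9.88, 10.4 and 9.75 CPM in siblings (0.83 ± 0.11, adjusted p = 0.000140). The aldehyde dehydrogenase gene aldh8a1 changed by -1.92 ± 0.37. Of 42 retinoid genes 6 were lower and 1 higher, 16.7% called beside 9.30% of all genes. The median of the list was 0.00621.

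Sterol synthesis had the largest share of higher genes among the 63 lists. Sterol genes are turned on by SREBP2 when the membranes of the endoplasmic reticulum hold little cholesterol. Of 27 tested 14 were higher and 1 lower, with a median of 0.90, where 4.09% of all genes were higher. They took 0.0735 ± 0.00309% of counts in knockouts, against 0.0484 ± 0.00137% in siblings (n = 4 each, exact permutation test, adjusted p = 0.0286). The regulator gene insig1 was at 102, 90.6, 91.5 and 102 CPM in knockouts, against 18.4, 20.9, 33.9 and 30.97 CPM in siblings (1.89 ± 0.19, adjusted p = 9.48e-06). The lanosterol demethylase gene cyp51 was at 42.5, 42.4, 53.5 and 36.7 CPM in knockouts, against 12.6, 12.2, 10.7 and 12.1 CPM in siblings, and the lanosterol synthase gene lss at 6.59, 5.62, 9.85 and 11.1 CPM in knockouts, against 1.75, 1.63, 2.57 and 2.604 CPM in siblings. Every knockout library lay above every sibling library for these genes. For insig1 and lss, chosen among the largest rises without overlap, this follows from the choice. The sterol reductase gene tm7sf2 changed by 1.68 ± 0.25, mvda by 1.25 ± 0.17 and the regulator srebf2 itself by 0.98 ± 0.13. The lower member was scap, which escorts SREBP to the Golgi (log2 fold change -0.36 ± 0.10, named after its value was seen). Its call was lost without knockout replicate 3 or sibling replicates 1, 2 or 4 (adjusted p = 0.0560 to 0.0740).

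Among 33 genes of lipoprotein handling and uptake 5 were higher and 3 lower, or 8 higher without knockout replicate 4, and the deeply lower mttp is one of the list. The phospholipid transfer protein gene pltp was at 44.2, 93.5, 89.4 and 52.8 CPM in knockouts, against 15.7, 14.6, 13.1 and 12.6 CPM in siblings (2.32 ± 0.22, adjusted p = 5.14e-06), and the endothelial lipase gene lipg at 55.99, 55.7, 54.8 and 68.5 CPM in knockouts, against 23.7, 23.4, 30.1 and 26.9 CPM in siblings (1.17 ± 0.13, adjusted p = 2.85e-05). The low-density lipoprotein receptor gene ldlrb was at 30.3, 40.3, 34.3 and 53.9 CPM in knockouts, against 22.3, 18.2, 17.4 and 21.6 CPM in siblings (1.00 ± 0.19, adjusted p = 0.00273). All 3 genes were without overlap between the groups. For pltp, chosen among the largest rises without overlap, this follows from the choice, and lipg and ldlrb were chosen by small p, which favours it.

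Genes of fatty acid synthesis and elongation were split. Of 33 tested 9 were higher and 7 lower. The stearoyl desaturase gene scd was at 8.82, 9.71, 7.72 and 8.203 CPM in knockouts, against 0.848, 0.977, 1.66 and 1.47 CPM in siblings (2.79 ± 0.29, adjusted p = 1.20e-05), and the polyunsaturated fatty acid desaturase gene fads2 at 9.34, 10.6, 6.82 and 6.34 CPM in knockouts, against 1.64, 1.17, 2.39 and 1.69 CPM in siblings (2.26 ± 0.24, adjusted p = 1.59e-05). The regulator srebf1 was at 229, 210.4, 189 and 156 CPM in knockouts, against 68.1, 76.6, 87.9 and 95.6 CPM in siblings (1.26 ± 0.13, adjusted p = 9.10e-06). In contrast the elongase gene elovl5, which acts in the same polyunsaturated fatty acid pathway as fads2, was at 5.905, 5.77, 7.72 and 15.4 CPM in knockouts, against 91.9, 77.5, 66.4 and 71.3 CPM in siblings (-3.14 ± 0.29, adjusted p = 3.90e-06). Of 40 acyl-CoA synthetases, thioesterases and binding proteins 3 were higher and 4 lower. Without knockout replicate 4 these counts were 5 and 10, and 2 were lower without knockout replicate 3. The gene acsl5 was at 1.33, 1.76, 3.79 and 4.84 CPM in knockouts, against 17.01, 14.99, 18.9 and 17.5 CPM in siblings and acsf2 changed by -0.95 ± 0.09, whereas acsbg2 was at 217, 198, 169.6 and 236 CPM in knockouts, against 101, 106, 105 and 111 CPM in siblings (0.96 ± 0.10, adjusted p = 1.20e-05).

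**Figure D3:**
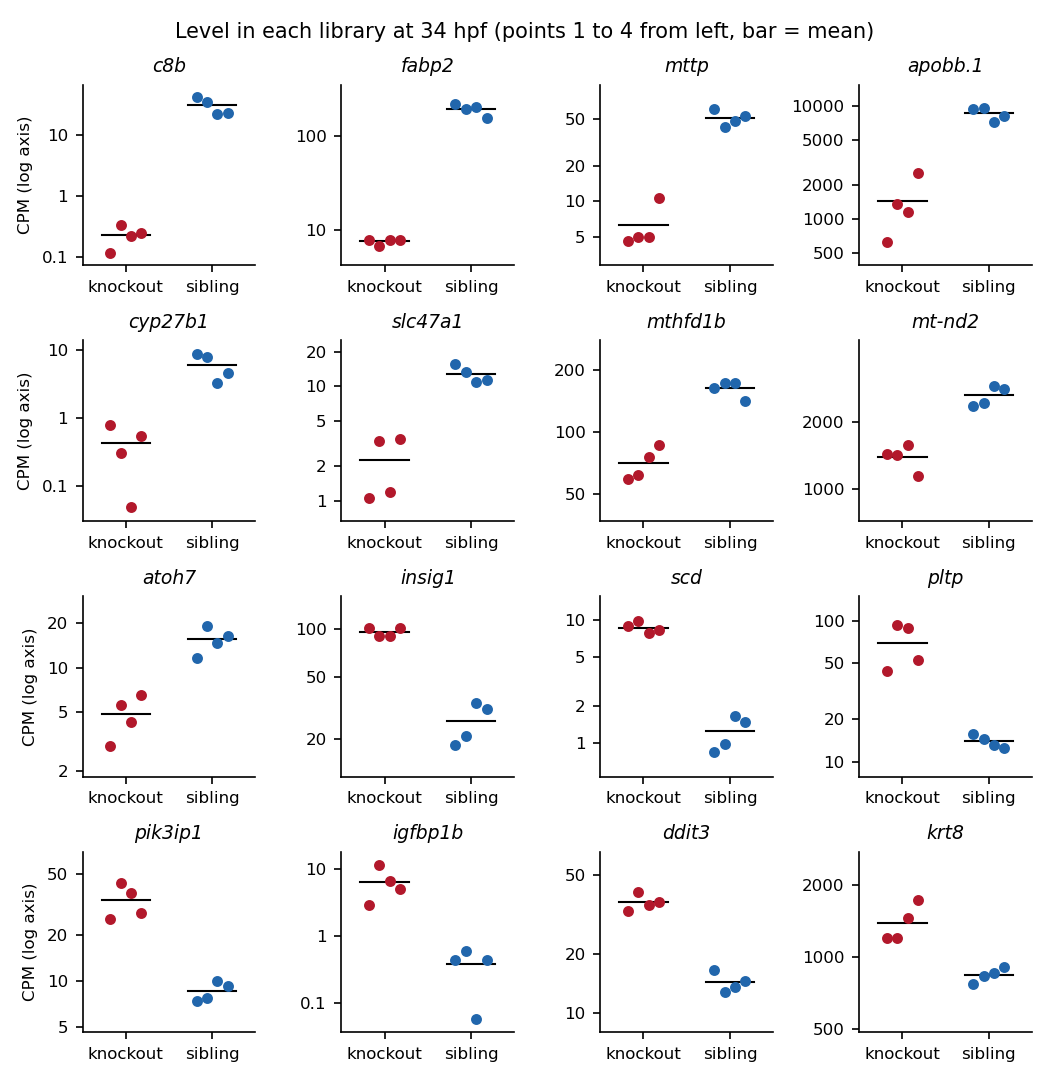
CPM of 16 genes in the 4 knockout libraries (red, left) and the 4 sibling libraries (blue, right) of 34 hpf on log axes, replicates 1 to 4 from left, bar at the mean. The first 9 genes are lower and the last 7 higher in every knockout library than in every sibling library.

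Genes of insulin and FoxO signalling were called higher far more often than lower. FoxO factors act when insulin signalling is low and raise inhibitors of growth and of glucose use. In the list of insulin and FoxO genes and alpha-arrestins 17 of 66 were higher and 2 lower, with a median of 0.18. Of the list 28.8% was called, beside 9.30% of all genes (4.09% higher and 5.21% lower). The inhibitor of phosphoinositide 3-kinase encoded by pik3ip1 was at 25.2, 43.5, 37.6 and 27.8 CPM in knockouts, against 7.36, 7.66, 9.91 and 9.28 CPM in siblings (1.97 ± 0.18, adjusted p = 3.44e-06). The gene txnipa, for an arrestin that restrains glucose uptake, was at 575, 532, 727 and 579.7 CPM in knockouts, against 221, 205, 305 and 316 CPM in siblings (1.205 ± 0.21, adjusted p = 0.00147). The translation inhibitor gene eif4ebp3 was at 9.27, 9.26, 12.6 and 9.73 CPM in knockouts, against 3.55, 3.31, 4.99 and 4.91 CPM in siblings, and eif4ebp3l at 47.6, 45.4, 46.3 and 55.3 CPM in knockouts, against 30.5, 26.5, 27.5 and 29.4 CPM in siblings. None of these groups overlapped, which for pik3ip1, chosen among the largest rises without overlap, follows from the choice. The pyruvate dehydrogenase kinase gene pdk2b, which turns fuel use from glucose to fat, was at 2.58, 5.08, 5.57 and 6.34 CPM in knockouts, against 0.984, 1.25, 1.05 and 1.08 CPM in siblings (2.16 ± 0.25, adjusted p = 3.75e-05).

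The binding proteins of insulin-like growth factors moved apart. The gene igfbp1b was at 2.85, 11.1, 6.44 and 4.92 CPM in knockouts, against 0.438, 0.597, 0.0583 and 0.442 CPM in siblings (4.02 ± 0.54, adjusted p = 0.000175), and igfbp2a was at 10.4, 12.4, 12.99 and 16.2 CPM in knockouts, against 39.4, 34.9, 32.6 and 40.7 CPM in siblings (-1.50 ± 0.16, adjusted p = 1.73e-05). The other lower member of the list was igfbp5b (-0.37 ± 0.11), named after its value was seen. Its call was kept without knockout replicate 1 and lost without any other 1 library (adjusted p = 0.0748 to 0.114) and under upper quartile scaling (adjusted p = 0.0816).

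The integrated stress response list held calls both ways. It had 9 higher and 4 lower of 31, 41.9% called beside 9.30% of all genes. The transcription factor gene ddit3 was at 32.9, 41.2, 35.6 and 36.6 CPM in knockouts, against 16.7, 12.8, 13.5 and 14.6 CPM in siblings (1.34 ± 0.12, adjusted p = 1.78e-06), nupr1a at 41.5, 42.2, 52.2 and 68.96 CPM in knockouts, against 19.3, 16.996, 20.6 and 21.3 CPM in siblings and ppp1r15a, which reverses the translation block, at 33.4, 31.2, 32.4 and 32.5 CPM in knockouts, against 16.6, 16.9, 16.8 and 16.2 CPM in siblings (0.96 ± 0.11, adjusted p = 4.08e-05). The asparagine synthetase gene asns, also a target of this response, was at 46.03, 42.1, 41.02 and 37.6 CPM in knockouts, against 73.4, 77.8, 65.8 and 82.996 CPM in siblings (-0.85 ± 0.14, adjusted p = 0.000870). The basic leucine zipper gene cebpg changed by 0.38 ± 0.09. In the p53 list 8 were higher and 1 lower of 34, 26.5% called beside 9.30% of all genes. Among the higher ones were the cell death genes bbc3 and pmaip1 (1.04 ± 0.24). The level of bbc3 was 8.85, 6.02, 10.5 and 5.797 CPM in knockouts, against 3.36, 4.02, 4.46 and 3.39 CPM in siblings (1.03 ± 0.19, adjusted p = 0.00255). The mTOR inhibitor gene sesn1, which both this list and the FoxO list hold, was at 35.2, 76.5, 67.02 and 36.7 CPM in knockouts, against 25.3, 22.4, 26.9 and 32.4 CPM in siblings (1.01 ± 0.20, adjusted p = 0.00361).

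Of 61 autophagy and lysosome genes 10 were higher and 1 lower, and the list took 0.523 to 0.747% of counts in knockouts, against 0.501 to 0.552% in siblings, so its summed level overlapped. The lysosomal protease genes lgmn, at 129.9, 167, 175 and 168 CPM in knockouts, against 85.7, 83.9, 88.3 and 87.1 CPM in siblings (0.89 ± 0.10, adjusted p = 2.73e-05), and tpp1, at 0.62 ± 0.10, were higher, as were atg9a (0.79 ± 0.15) and wipi2 (0.40 ± 0.07) of the forming autophagosome. Without knockout replicate 1 the higher members were 17. The lower member was the protease gene ctsh, at 11.5, 18.7, 16.5 and 30.8 CPM in knockouts, against 49.5, 41.2, 78.6 and 71.2 CPM in siblings (-1.63 ± 0.25, adjusted p = 0.000523).

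Genes of amino acid breakdown and one-carbon metabolism were called lower far more often than higher. Of 79 tested 22 were lower and 2 higher, with a median of -0.28, 30.4% called beside 9.30% of all genes. Folate enzymes pass single carbon units from serine and glycine to nucleotides and methionine. The serine hydroxymethyltransferase gene shmt1 was at 63.6, 69.8, 69.9 and 80.1 CPM in knockouts, against 166, 133, 136 and 149.7 CPM in siblings (-1.05 ± 0.10, adjusted p = 4.60e-06), and mthfd1b at 59.5, 62.3, 75.5 and 86.8 CPM in knockouts, against 164, 173, 173 and 141 CPM in siblings (-1.20 ± 0.12, adjusted p = 1.04e-05). The sarcosine dehydrogenase gene sardh was at 34.5, 65.2, 46.4 and 65.8 CPM in knockouts, against 189.8, 179, 149 and 147 CPM in siblings, and the glycine methyltransferase gene gnmt at 23.9, 23.3, 23.8 and 38.99 CPM in knockouts, against 58.1, 63.2, 49.1 and 59.5 CPM in siblings. All knockout libraries lay below all sibling libraries in these 4 genes. The proline and ornithine enzyme genes aldh4a1 and oat changed by -1.02 ± 0.10 and -0.84 ± 0.12. Without knockout replicate 4, 34 members of the list were lower. The higher members were gldc of the glycine cleavage system (0.54 ± 0.12) and prodhb of proline oxidation (1.35 ± 0.39), named after their values were seen. The call of prodhb was lost without knockout replicates 1 or 3 or sibling replicates 1, 3 or 4 (adjusted p = 0.0649 to 0.103) and with the replicate block (adjusted p = 0.0629).

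Several genes of glycogen and glucose metabolism were lower too. Of 28 glycogen and gluconeogenesis genes 9 were lower and 1 higher, with a median of -0.43, 35.7% called beside 9.30% of all genes. The mitochondrial phosphoenolpyruvate carboxykinase gene pck2 was at 54.1, 57.5, 78.2 and 63.5 CPM in knockouts, against 125, 105, 116 and 131 CPM in siblings (-0.91 ± 0.11, adjusted p = 6.82e-05). The glycogen branching enzyme gene gbe1b changed by -0.94 ± 0.13, the glycogen synthase gene gys1 by -0.49 ± 0.08, the phosphorylase gene pygmb by -0.69 ± 0.10 and pgm1 by -0.81 ± 0.14. In glycolysis the liver pyruvate kinase gene pklr was at 1.33, 3.46, 3.13 and 3.75 CPM in knockouts, against 12.2, 10.9, 9.27 and 9.24 CPM in siblings (-1.84 ± 0.36, adjusted p = 0.00335) and the lactate dehydrogenase gene ldha at 90.6, 80.5, 89.6 and 113 CPM in knockouts, against 144, 147, 154 and 159.7 CPM in siblings (-0.70 ± 0.09, adjusted p = 0.000126). The higher member of the glycogen and gluconeogenesis list was pfkfb4b, for an enzyme that sets the rate of glycolysis. Its level was 139, 196, 198 and 173 CPM in knockouts, against 54.3, 66.1, 70.9 and 78.1 CPM in siblings (1.39 ± 0.15, adjusted p = 2.19e-05). Of 52 glycolysis and hypoxia genes 4 were lower and 3 higher, 13.5% beside 9.30% of all genes, with a median of -0.06. Without knockout replicate 4, 10 of them were lower, and without knockout replicate 3, 2.

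Mitochondrially encoded transcripts were lower, and few nuclear genes of the same complexes were called. The mitochondrial genes took 2.28, 2.43, 2.73 and 2.08% of counts in knockouts, against 2.92, 3.18, 3.56 and 3.55% in siblings (exact permutation test, adjusted p = 0.0286). Of 12 tested 10 were lower and 0 higher. The complex I gene mt-nd2 was at 1431, 1422, 1565 and 1145 CPM in knockouts, against 2361, 2435, 2911 and 2801 CPM in siblings (-0.92 ± 0.11, adjusted p = 3.79e-05), mt-nd1 changed by -0.81 ± 0.11, and the complex IV gene mt-co2 by -0.47 ± 0.10. Of 92 nuclear-encoded respiratory chain genes 4 were lower and 1 higher, below the background, with a median of -0.07. The count of lower genes was 31 without knockout replicate 4, 2 without knockout replicate 2 or sibling replicate 4, and 1 without sibling replicate 1. The complex I subunit gene ndufb6, one of these, was at 34.2, 37.1, 35.98 and 33.7 CPM in knockouts, against 42.1, 45.3, 48.2 and 46.5 CPM in siblings (-0.37 ± 0.08, adjusted p = 0.00622).

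Genes that serve translation held calls both ways. Aminoacyl-tRNA synthetases, which charge tRNAs with amino acids, had 7 lower and 0 higher of 20, and 19 of these 20 had a negative fold change. The glutamine enzyme gene qars was at 49.7, 53.2, 45.1 and 47.3 CPM in knockouts, against 89.4, 85.01, 78.9 and 73.7 CPM in siblings (-0.74 ± 0.11, adjusted p = 0.000246), larsb changed by -0.46 ± 0.09, yars by -0.64 ± 0.13 and gars by -0.37 ± 0.08. Without knockout replicate 4 the count was 12. The ribosome-associated ATPase genes abcf2a, at 46.8, 50.2, 41.5 and 65.9 CPM in knockouts, against 124, 102, 90.03 and 85.04 CPM in siblings (-0.97 ± 0.15, adjusted p = 0.000430), and abcf1, at -0.79 ± 0.15, were also lower. In the opposite direction, the elongation factor gene eef2b was at 4144, 5595, 6465 and 6097 CPM in knockouts, against 3637, 3661, 3789.9 and 3757 CPM in siblings (0.59 ± 0.11, adjusted p = 0.00356) and eef1a1l1 changed by 0.39 ± 0.09. Higher as well were 2 genes whose products act in assembly of the large ribosomal subunit, gtpbp4 at 305, 302, 299 and 360.4 CPM in knockouts, against 185, 168, 185 and 172 CPM in siblings (0.83 ± 0.10, adjusted p = 3.37e-05) and nsa2 at 0.58 ± 0.11. The cytosolic ribosomal proteins had 2 higher and 0 lower of 78 and a median of 0.24, and they took 6.89 to 8.94% of counts in knockouts, against 6.27 to 6.599% in siblings. Without knockout replicate 1, 24 of them were higher, and without any 1 sibling library it was 1. The higher members were rps27l, at 28.7, 40.3, 40.7 and 47.5 CPM in knockouts, against 21.96, 18.03, 17.9 and 23.8 CPM in siblings (0.94 ± 0.15, adjusted p = 0.000870), and rpl10a (0.35 ± 0.10), whose call was lost without any 1 sibling library (adjusted p = 0.0505 to 0.0715).

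Called genes of protein folding and disposal were mostly lower, by small folds. Of 49 chaperones and folding enzymes of the endoplasmic reticulum 10 were lower and 1 higher, with dnajb11 at 43.5, 54.2, 38.7 and 66.5 CPM in knockouts, against 80.7, 87.2, 81.4 and 79.4 CPM in siblings (-0.70 ± 0.14, adjusted p = 0.00389), manf at -0.74 ± 0.15 and pdia5 at -0.45 ± 0.09. Of 29 heat shock genes 7 were lower and 0 higher, with hspa4a at 64.5, 55.98, 51.8 and 72.7 CPM in knockouts, against 118, 113, 88.8 and 98.9 CPM in siblings (-0.78 ± 0.11, adjusted p = 0.000318), dnaja1 at -0.78 ± 0.11 and the mitochondrial chaperonin gene hspd1 at -0.58 ± 0.12. Of 43 proteasome subunits 6 were lower and 0 higher, such as psmd11a (-0.48 ± 0.09) and psmd7 (-0.49 ± 0.10). These counts depended on single libraries. Without knockout replicate 4, 26 of the folding genes, 12 heat shock genes and 30 proteasome subunits were lower. The count of lower heat shock genes was 3 without knockout replicate 3 or sibling replicate 1 and 4 without sibling replicate 2. In sum, heat shock transcripts lay the other way, at 1.33 to 1.44% of counts in knockouts, against 1.14 to 1.24% in siblings, without overlap.

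**Figure D4:**
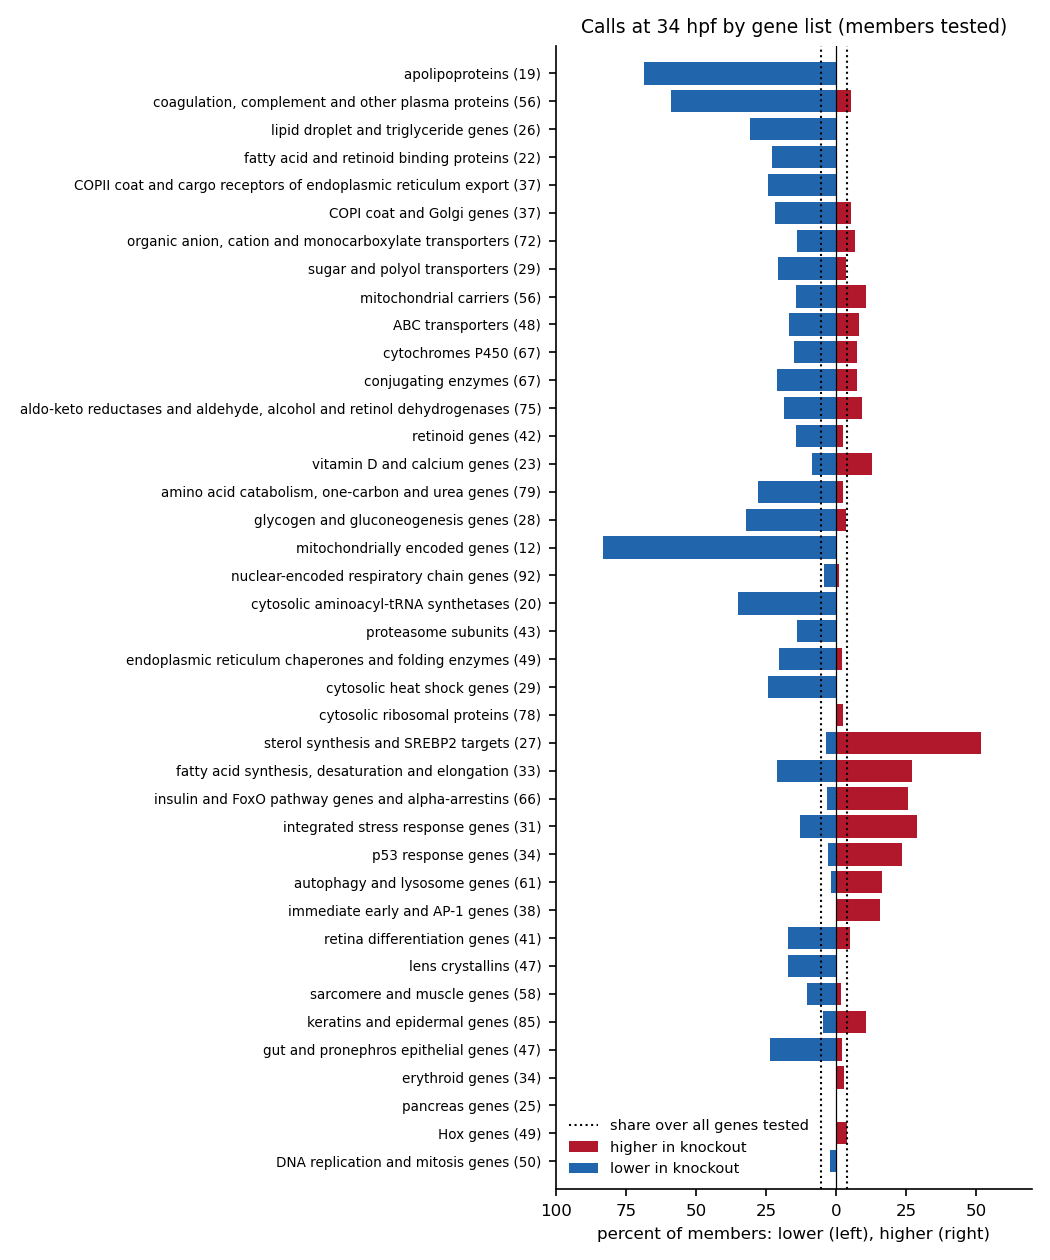
Percentage of the tested members of 40 gene lists called lower (blue, left) and higher (red, right) in knockouts at 34 hpf, with the number tested in brackets. Dotted lines mark the shares over all genes, 5.21% lower and 4.09% higher.

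The next lists of transcription factor genes were called in shares near or above the 9.30% over all genes. The Hox genes, given below, were called at 4.08%. Of 35 factors of liver and endoderm 3 were lower and 2 higher. Of 75 nuclear receptors 3 were lower and 4 higher, where 1 or 2 were higher without any 1 library other than knockout replicate 3 or sibling replicate 1. Among them, the bile acid responsive repressor gene nr0b2a was at 85.2, 149, 115 and 137 CPM in knockouts, against 51.4, 29.8, 60.4 and 61.2 CPM in siblings (1.26 ± 0.26, adjusted p = 0.00517). Kruppel-like factors had 4 higher and 0 lower of 39, or 2 higher without knockout replicates 2 or 3 or sibling replicates 2 or 3, with klf6a at 113, 102, 109.8 and 115 CPM in knockouts, against 76.9, 73.9, 76.7 and 79.4 CPM in siblings (0.52 ± 0.08, adjusted p = 0.000288) and klf10 at 5.22, 2.56, 10.2 and 3.86 CPM in knockouts, against 0.328, 0.272, 0.991 and 1.03 CPM in siblings (3.05 ± 0.71, adjusted p = 0.01196). The immediate early genes had 6 higher and 0 lower of 38 and a median of 0.38. Among these were the growth gene myca, at 35.5, 30.3, 38.3 and 35.4 CPM in knockouts, against 24.8, 23.02, 23.8 and 20.9 CPM in siblings (0.59 ± 0.09, adjusted p = 0.000671), and jun, at 0.52 ± 0.12.

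Some genes of retinal differentiation were lower. The factor gene atoh7, needed for retinal ganglion cells, was at 2.94, 5.62, 4.31 and 6.56 CPM in knockouts, against 11.8, 19.2, 14.8 and 16.6 CPM in siblings (-1.68 ± 0.21, adjusted p = 6.18e-05). The photoreceptor factor genes nr2e3 and six7 were at 0.901, 0.341, 0.501 and 0.711 CPM in knockouts, against 1.59, 2.28, 2.92 and 2.604 CPM in siblings and at 0.142, 0.341, 0.401 and 0.273 CPM in knockouts, against 0.602, 1.36, 0.933 and 1.57 CPM in siblings. These 3 genes did not overlap between the groups. The gene rorb changed by -0.92 ± 0.15. Of 41 retina genes 7 were lower and 2 higher, and the list took 0.0644 to 0.0673% of counts in knockouts, against 0.0617 to 0.0688% in siblings, so its summed level overlapped. Lens crystallins had 8 lower and 0 higher of 47, and took 0.172 to 0.294% of counts in knockouts, against 0.1996 to 0.288% in siblings. The crystallin count was 22 without knockout replicate 4, 19 with the replicate block, and 2 to 5 without knockout replicates 1, 2 or 3 or sibling replicates 2, 3 or 4. Many crystallin genes are near-identical copies, so single members such as crygm2d4 (-0.80 ± 0.18) are uncertain.

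Lists of other tissues held calls as well. Of 47 gut and pronephros genes 11 were lower and 1 higher, and the list took 0.111 to 0.143% of counts in knockouts, against 0.1498 to 0.161% in siblings. Between 5 and 7 were lower without knockout replicate 3 or sibling replicates 1, 3 or 4. The cadherin gene cdh17 was at 60.02, 52.001, 55.01 and 49.5 CPM in knockouts, against 93.8, 96.03, 113 and 95.9 CPM in siblings (-0.88 ± 0.08, adjusted p = 4.90e-06), and the peptidase gene dpp4 at 4.03, 7.13, 4.74 and 4.92 CPM in knockouts, against 12.3, 9.88, 12.7 and 11.3 CPM in siblings (-1.15 ± 0.20, adjusted p = 0.00156). Of 58 muscle genes 6 were lower and 1 higher, 12.1% beside 9.30% of all genes. Over the omissions of 1 library 4 to 9 were lower. The actin gene acta1b was at 735, 859, 752 and 869 CPM in knockouts, against 1381, 1516, 1238 and 1239 CPM in siblings (-0.74 ± 0.12, adjusted p = 0.00104) and the myosin heavy chain gene myhz1.3, one of several near-identical copies, at 3572, 2799, 4119 and 4434 CPM in knockouts, against 5211, 5779, 5617 and 5779 CPM in siblings (-0.59 ± 0.12, adjusted p = 0.00496). The muscle list as a whole took 7.14 to 8.97% of counts in knockouts, against 7.41 to 8.39% in siblings. Of 85 keratins and epidermal genes 9 were higher and 4 lower, with the simple epithelial keratin genes krt8 at 1197, 1196, 1455 and 1725 CPM in knockouts, against 771, 835, 853 and 905 CPM in siblings (0.73 ± 0.11, adjusted p = 0.000450) and krt18a.1 at 613, 557, 715 and 482 CPM in knockouts, against 324, 334, 325 and 362 CPM in siblings (0.82 ± 0.14, adjusted p = 0.00102). The list took 2.76 to 3.17% of counts in knockouts, against 2.54 to 2.67% in siblings, and without sibling replicate 2 the higher members were 5.

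A few single genes with clear changes stood outside these groups. The major histocompatibility light chain gene b2m was at 6.81, 10.1, 9.93 and 7.44 CPM in knockouts, against 2.11, 2.44, 2.92 and 2.82 CPM in siblings (1.73 ± 0.19, adjusted p = 1.95e-05), and the itaconate synthesis gene irg1l at 35.6, 25.1, 76.9 and 25.05 CPM in knockouts, against 4.81, 5.702, 10.6 and 11.8 CPM in siblings (2.31 ± 0.50, adjusted p = 0.00773). The cobalamin carrier gene tcnbb was at 218, 157, 231 and 253 CPM in knockouts, against 70.8, 68.3, 88.7 and 106 CPM in siblings (1.36 ± 0.19, adjusted p = 0.000188). The ferritin gene fth1b was at 13.2, 11.98, 12.1 and 12.6 CPM in knockouts, against 5.25, 5.84, 6.33 and 4.2002 CPM in siblings (1.21 ± 0.14, adjusted p = 4.41e-05), the lymphatic receptor gene lyve1a at 1.897, 2.47, 2.38 and 3.88 CPM in knockouts, against 0.684, 1.11, 0.816 and 1.01 CPM in siblings, and the fibronectin gene fn1b at 715, 463, 434 and 207 CPM in knockouts, against 196, 190.0, 141 and 206 CPM in siblings (1.31 ± 0.30, adjusted p = 0.00927). All of these were higher in every knockout library than in every sibling library. For fn1b, knockout replicate 4 was barely above the highest sibling. The list of iron, copper, zinc and haem genes had 4 higher and 0 lower of 33, 12.1% called beside 9.30% of all genes. Without knockout replicate 4, 3 of the list were lower. Its summed level lay the other way, at 0.160 to 0.246% of counts in knockouts, against 0.270 to 0.331% in siblings, without overlap.

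Carboxylesterases and lipases had 2 higher and 5 lower of 20 (35%), and fatty acid and retinoid binding proteins 0 and 5 of 22 (22.7%). Fatty acid oxidation and ketone genes had 2 and 5 of 38 (18.4%), with 11 lower without knockout replicate 4. The lists that follow held calls in shares from 0 to 13.2%, beside the background of 9.30%. None of 25 pancreas genes was called, and 1 of 34 erythroid, 1 of 14 hatching gland and 2 of 41 leukocyte genes were higher with 0 lower. DNA replication and mitosis had 1 lower and 0 higher of 50, Hox genes 2 higher and 0 lower of 49, and neurons and glia 3 higher and 0 lower of 41. Signalling ligands had 3 higher and 2 lower of 105, Notch pathway genes 3 and 1 of 37, and collagens and cartilage matrix 2 and 2 of 107. Endothelial genes had 5 and 1 of 56, interferon response genes 3 and 1 of 35, clock genes 4 and 1 of 38, and peroxisome genes 1 and 2 of 41. Several of these small counts moved by more than 1.5 times when 1 library was left out, among them clock genes (1 or 2 higher without knockout replicates 2 or 3 or sibling replicates 1, 2 or 4) and endothelial genes (3 higher without knockout replicate 3 or sibling replicates 2 or 3). Without knockout replicate 4, 8 peroxisome and 7 replication genes were lower, and 5 Notch, 5 matrix and 4 Hox genes were higher. With the replicate block 4 replication and 5 matrix genes were lower, and 4 matrix genes higher. The higher Notch, Hox and neuronal genes were 0 or 1 in some other omissions. Over the 63 lists, 34 of the 49 counts of 1 to 3 members moved by more than 1.5 times in some omission. A gene that missed the threshold is not shown to be equal in the groups.

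The knockout effect at 34 hpf was then set beside that at 48 hpf, each stage with its own 4 knockout and 4 sibling libraries. At 48 hpf 1146 genes (4.76%) were higher and 1271 (5.28%) lower. Of the 2240 genes called at 34 hpf, 1077 were called in the same direction at 48 hpf, which is 48.1% of the calls at 34 hpf and 44.6% of those at 48 hpf. They were 452 higher and 625 lower genes. A further part had the same sign without a call, so that 2135 of 2240 kept their sign. Opposite calls were made for 9 genes. The difference between the stages itself was called for 49 genes (0.203%), positive (48 minus 34 hpf) for 21 (0.0872%) and negative for 28 (0.116%), of which 22 were called at 34 hpf and 40 at 48 hpf. A gene called at 1 stage alone is therefore mostly not shown to differ between the stages.

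**Figure D5:**
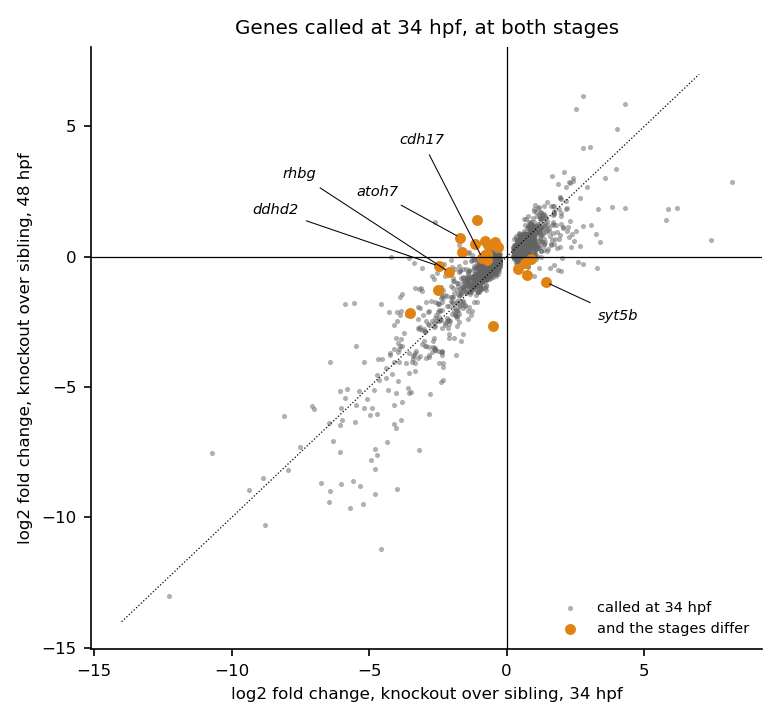
Log2 fold change of knockout over sibling at 34 hpf against that at 48 hpf, for the 2240 genes called at 34 hpf. Orange points are the 22 of them whose fold change differed between the stages, and the dotted line marks equal values.

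The genes whose effect differed by stage include regulators of retinal neurogenesis and epithelial genes. The change of atoh7 was -1.68 ± 0.21 at 34 hpf and 0.73 ± 0.20 at 48 hpf, opposite and called at both stages, a difference of 2.42 ± 0.29 (48 minus 34 hpf, adjusted p = 0.000918). The retinal progenitor factor gene foxn4 behaved alike, at -0.44 ± 0.10 and 0.58 ± 0.10 (difference 1.02 ± 0.14, adjusted p = 0.00295). The vesicle protein gene syt5b was at 3.699, 3.58, 3.76 and 4.38 CPM in knockouts, against 1.09, 1.19, 1.25 and 2.16 CPM in siblings at 34 hpf and was called higher (1.43 ± 0.19), but lower at 48 hpf (-0.97 ± 0.18, adjusted p of the difference = 0.000685). The gene tmem41ab changed by -0.78 ± 0.14 and 0.59 ± 0.13. Other genes were called lower at 34 hpf and had fold changes nearer to 0 or above 0 at 48 hpf. The lipase gene ddhd2 was at 3.13, 6.02, 4.41 and 6.02 CPM in knockouts, against 26.6, 24.001, 25.9 and 29.9 CPM in siblings at 34 hpf, with -2.44 ± 0.19 at that stage and -0.36 ± 0.18 at 48 hpf (difference 2.08 ± 0.26, adjusted p = 0.00116). For rhbg the values were -2.09 ± 0.13 and -0.59 ± 0.12 (adjusted p of the difference = 0.000918). For cdh17 they were -0.88 ± 0.08 and -0.06 ± 0.08 (0.004798), for dpp4 -1.15 ± 0.20 and 0.48 ± 0.20 (0.0217), and for ctsh -1.63 ± 0.25 and 0.18 ± 0.25 (0.0456). More of the 49 genes, 27 in all, were called at 48 hpf and not at 34 hpf. Among them were the neuronal factor gene bhlhe23 (-2.15 ± 0.22 at 48 hpf), ccdc88aa (-2.32 ± 0.23) and the receptor gene tnfrsf9a (2.08 ± 0.20). The most negative difference was that of gnb3a, at -0.03 ± 0.48 and -3.98 ± 0.32 (difference -3.94 ± 0.58, adjusted p = 0.00545). Its mean level at 34 hpf was low, at 0.297 CPM in knockouts and 0.296 CPM in siblings. Several deep falls were larger at 48 hpf in the fit, such as epdl2 at -8.73 ± 0.71, cyp2aa8 at -5.23 ± 0.41 and apoa1b at -7.10 ± 0.80. Others were smaller at 48 hpf, such as c8b at -5.85 ± 0.31, ucp1 at -3.43 ± 0.52 and mttp at -2.22 ± 0.21. For none of these examples, larger or smaller, was the difference called, but it was for some other falls. The gene hao2, named after its value was seen, changed by -3.51 ± 0.16 at 34 hpf and -2.15 ± 0.15 at 48 hpf. Its difference was called (1.36 ± 0.21, adjusted p = 0.00768). The phosphorylase gene pygl was called lower at 34 hpf (-0.50 ± 0.15, adjusted p = 0.0416) and at 48 hpf (-2.65 ± 0.15). Its difference was called (-2.16 ± 0.21, adjusted p = 0.000208).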

How the data were processed

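TRIzol RNA, 1 µg for each library, was made into VAHTS Universal V8 libraries, per the labels' protocols. The deposited values are raw read counts, 1 row for each gene symbol. For alignment and counting the submitters' processing notes list STAR 2.7.10b and featureCounts 2.0.6, for read quality and trimming FastQC 0.12.1 and Trim Galore 0.6.10, and as build GRCz11. The sources used here do not give strand, multi-mapping or annotation settings, so near-identical, overlapping and antisense genes are uncertain.

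Of 36109 symbols, 24084 passed edgeR's filterByExpr. The 16 libraries were fitted together as 4 groups (edgeR 4.0.16 in R 4.3.3, TMM scaling, quasi-likelihood test), with Benjamini-Hochberg adjustment over the genes tested. Shares of counts were compared by exact permutation tests of 4 against 4 libraries, without pairing. Floors of 3 counts cover counting error only. The comparison, its 63 lists and the naming rule were chosen with earlier results of these data known, and 4 lists (ribosome, matrix, esterases, tRNA synthetases) were corrected after the files were seen.

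The naming rule takes the hnf4 genes, the 20 largest rises and falls (groups without overlap, average log2 CPM of 1 or more), the 15 largest CPM gains and losses, up to 6 called members of each list by smallest p (2 where none was called) and the 8 largest stage differences either way. The text gives a selection of these genes. The largest rises, falls, gains, losses and stage differences were taken without symbols that begin in forms such as si:, zgc:, LOC, CR or ch. This passes over loci without a gene name and also gene names that begin with ch. Genes taken as the largest rises or falls have groups without overlap by this rule, so their separation is only a description. Alternatives were DESeq2 1.42.0, limma-voom (limma 3.58.1), other scalings and filters, the 34 hpf libraries alone, a replicate block and leaving out each library. Knockout and sibling libraries of the same repeat number deviated together (correlations 0.155, 0.267, 0.279 and 0.208). All exceed 0.1, so the numbers were taken as pairs in the replicate block, though the labels do not define them. The main fit did not use these pairs. The library of the same number was the closest match from both sides for replicate 3 only, and from neither side for replicate 1. Libraries within a group differed by at least 7.80 times the counting noise on average. The main fit with its 34 hpf contrast was first run on simulated counts.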

Additional observations from a re-analysis of the deposited data

Results flagged for a closer look

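Dixon's criterion at 95% was applied to 364 groups of 4 libraries (knockout or sibling, for each gene named except pygl, kdelr2a, hao2 and gnb3a). In 21 groups it set a library apart from the other 3. Chance alone meets it in about 5% of groups, and the total is near that share. The genes were mostly chosen by small p or large change, so the share is only a rough guide. The cases were not spread evenly over the libraries. Knockout replicate 4 was the high library in 12 of the 21. For transcripts that were lower in knockouts these were epdl2 at 2.49 CPM, mttp at 10.7 CPM, slc2a2 at 3.17 CPM, sdr42e2 at 2.13 CPM, rdh5 at 2.63 CPM, rbp2a at 3.75 CPM, pla2g12b at 178.8 CPM, gnmt at 38.99 CPM and pygmb at 126.8 CPM. For transcripts that were higher in knockouts they were lipg at 68.5 CPM, gtpbp4 at 360.4 CPM and nsa2 at 582.6 CPM. Elsewhere in knockouts, fabp2 was lowest in replicate 2 at 6.87 CPM, hpxa highest in replicate 2 at 60.9 CPM and eif4ebp3 highest in replicate 3 at 12.6 CPM. In siblings, itih3a (27.7 CPM) and slc13a2 (5.43 CPM) were high in replicate 2, and cideb (4.81 CPM) and eef1a1l1 (9677 CPM) in replicate 1. There cdh17 (112.8 CPM) was high in replicate 3 and syt5b (2.16 CPM) in replicate 4.

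The knockout effect differed between the stages, by the test of the difference in edgeR, for 12 of the genes named. The genes pygl, kdelr2a, hao2 and gnb3a are left out of this count. Values are log2 fold changes of 48 minus those of 34 hpf. They were positive for atoh7 (2.42), ddhd2 (2.08), ctsh (1.82), tnfrsf9a (1.77), dpp4 (1.64), rhbg (1.499), tmem41ab (1.37), foxn4 (1.02) and cdh17 (0.82). They were negative for ccdc88aa (-2.70), syt5b (-2.40) and bhlhe23 (-2.26).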

How the results depend on the processing

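With only the 8 libraries of 34 hpf, which leaves fewer degrees of freedom, 491 genes were higher and 739 lower. Leaving out each library gave 522 to 1226 higher genes (584 without knockout replicate 3, 646 and 522 without sibling replicates 1 and 2) and 864 to 1982 lower genes (1982 without knockout replicate 4). The count of genes whose effect differed between the stages was 177 in DESeq2 and 31 to 113 over the omissions, with 32 and 113 without knockout replicates 3 and 4 and 31 without sibling replicate 3. With the replicate block, in which 4 pairs cannot give a p below 0.125, the shares differed by -1.49 (apolipoproteins), -0.390 (plasma proteins), 0.0251 (sterol genes) and -0.920 percentage points (mitochondrial genes). Over the omissions, whose smallest p is 0.0571, they were -1.58 to -1.42, -0.425 to -0.358, 0.0239 to 0.0263 and -1.05 to -0.821. These p-values say nothing about stability. The change of hnf4a, not called, ranged from -0.37 to 0.10 over the omissions and turned sign without knockout replicate 4 (0.10) and without sibling replicate 2 (0.000202). Of 172 called genes named (pygl, kdelr2a and hao2 left out), 9 lost their call in at least 1 alternative. Of these, 7 lost it with only the 34 hpf libraries, 2 in limma-voom and 1 (prodhb) with the replicate block. The cause was not tested. Named genes were mostly chosen by small p or large change in these libraries, which favours keeping their calls. Over all calls, 339 of 985 higher and 617 of 1255 lower genes were called in all alternatives. Of 45 counts of at least 5 list members, 36 stayed within 1.5 times without knockout replicate 4, 31 with only the 34 hpf libraries and 43 with the block, an alternative chosen after seeing the data. Genes of low level were called least, where counts limit what can be detected.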
